A study of Mus musculus with 4 samples.

Results

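The collagen chains of the testis matrix were taken as every gene of the deposited count table whose symbol has the form Col, number, a, number. There were 44 such genes among 55335, and all 44 passed the filter on low counts, which left 24116 genes for testing. Collagens are secreted proteins built from 3 chains wound into a triple helix. Chains are hydroxylated and folded in the endoplasmic reticulum, trimmed after secretion and crosslinked into fibrils, networks or filaments. In the testis, Sertoli cells and peritubular myoid cells together lay down the basement membrane of the seminiferous tubule, and stromal cells between the tubules make fibrillar collagen.

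Poly(A) RNA from testes of mice at postnatal day 14 was sequenced as 2 libraries of genotype Znhit1_KO and 2 of genotype CTRL, which the labels call independent biological replicates. The sources used here do not give the allele, any Cre driver, the strain, the number of animals or what the CTRL mice carry. ZNHIT1 is a subunit of the chromatin remodeller that places histone H2A.Z. The question put here is how collagen transcripts of the testis differ when Znhit1 is disrupted. In such bulk tissue, more cells of a type and more RNA per cell cannot be told apart.

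Estimated counts summed to between 129531714 and 157790457 per library. Znhit1 stood at 17.3 and 31.9 CPM (counts scaled to library size by TMM) in CTRL replicates 1 and 2 and at 3.15 and 2.14 in Znhit1_KO replicates 1 and 2. Markers of the testis somatic cells were present in every library, and the epididymal genes Lcn5, Lcn8, Lcn9 and Adam28 were at 0 in all 4. The 10 pachytene spermatocyte markers summed to 1401 and 2901 CPM in CTRL and to 689 and 1044 CPM in Znhit1_KO, so that the groups did not overlap and each pair of replicates differed as well.

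Transcripts of basement membrane and fibrillar collagens made up most of the collagen message. TPM, the authors' value per transcript length and library total, is the scale on which chains are compared with each other. The 44 chains summed to 1240 and 1032 TPM in CTRL replicates 1 and 2 and to 1397 and 1260 TPM in Znhit1_KO replicates 1 and 2. By mean over the 4 libraries, 9 chains stood at 50 TPM or more, 16 at 10 or more and 8 under 1. The 6 type IV chains took 33.2% and 36.9% of collagen TPM in CTRL and 33.7% and 33.1% in Znhit1_KO. The 11 fibrillar chains took 27.6% and 28.1% in CTRL and 25.7% and 34.0% in Znhit1_KO. The groups overlapped in both shares. The most abundant chain, Col18a1, is a heparan sulfate-bearing collagen of basement membranes whose end fragment is endostatin. It stood at 254 and 163 TPM in CTRL and at 324 and 173 TPM in Znhit1_KO. Replicate 1 was the higher library in each group, and the groups overlapped. The next in order were Col1a2, Col4a1, Col4a2, Col3a1 and Col4a4, with means of 149, 148, 119, 87.2 and 82.4 TPM.

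**Figure D1:**
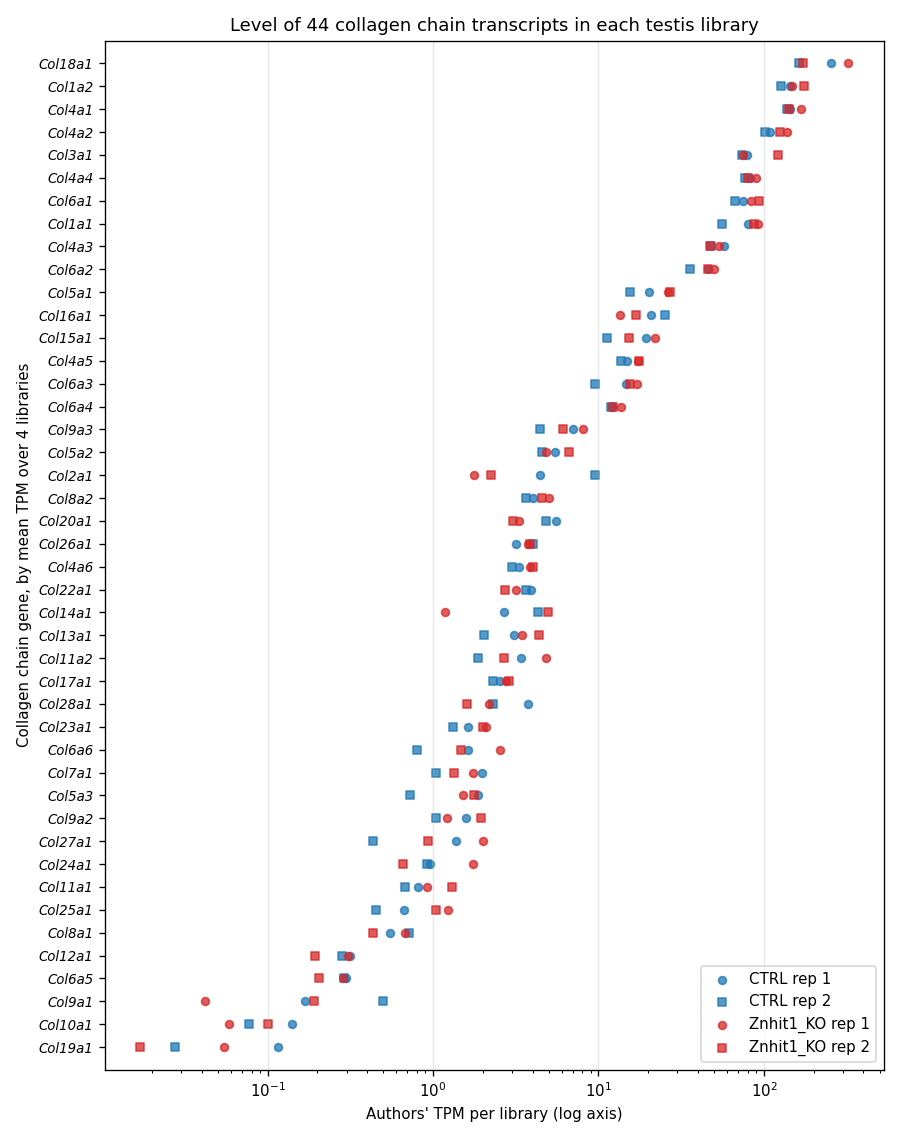
Authors' TPM (log axis) of the 44 collagen chain genes, ordered by their mean over 4 libraries, with circles for replicate 1 and squares for replicate 2 of CTRL (blue) and Znhit1_KO (red). Levels run from Col18a1, with a mean of 229 TPM, to Col19a1, whose highest library stands at 0.116 TPM, and the libraries of most chains lie close together on this scale.

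Differences between the groups were small for most chains, and the test called none of them. The edgeR quasi-likelihood test, adjusted over all 24116 genes, called 0 of 44 chains, as it called 0% of all genes. The lowest adjusted p of a chain was 0.322. Znhit1 itself was not called either, with a log2 change of -3.22 (edgeR p of 0.000361 before adjustment, 0.264 after it). An uncalled chain is therefore not shown to be unchanged. At an unadjusted p under 0.05 there was 1 chain with a positive change (Col5a1), against 2.99% of all genes, and 3 with a negative change (Col2a1, Col16a1 and Col20a1), against 7.75%. DESeq2 called 1 chain, Col2a1, lower, where it called 4.32% of all genes in either direction, 3.86% of all genes lower and 0.46% higher, and limma-voom called 0 chains and 0% of genes. The authors' deposited table marks the same chain, Col2a1, as down and no chain as up, beside 3.22% of its genes marked down and 0.277% marked up.

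Most chains had a small positive log2 change. The changes larger in size than 0.76 were those of Col2a1, Col9a1 and Col19a1, all negative. Of these, Col9a1 and Col19a1 were near the floor and overlapped between groups. Of the 44 chains, 31 had a positive log2 change (70.5%, against 53.1% of all genes tested) and 13 a negative one. The median over the chains was 0.22 and that over all genes 0.031. For 15 chains each Znhit1_KO library exceeded each CTRL library (34.1%, against 21.8% of all genes) and for 5 each lay below (11.4%, against 21.3%). These directions depend on the scaling: with each library scaled to its Sertoli cell markers, all genes had a median of -0.31 and the collagens one of -0.12, so that 1 chain (Col25a1) was higher without overlap, against 5.55% of all genes, and 15 were lower (34.1%, against 44.04% of all genes). Relative to the median of all genes the collagens stood at 0.19 with either scaling. Rescaling moves all genes nearly alike, so this difference could hardly change between the scalings. It was 0.18 and 0.11 without CTRL replicates 1 and 2, and 0.16 and 0.17 without Znhit1_KO replicates 1 and 2. Changes below are given with TMM scaling. The 20 Sertoli cell markers, whose median log2 change was 0.41, summed to 7790 and 8098 CPM in CTRL and to 10838 and 9360 CPM in Znhit1_KO, and their part in the collagen values was not tested. Of the Sertoli markers, 16 were higher in both Znhit1_KO libraries and 1 was lower in both. The scaling used their summed counts, to which Clu gave the most. Clu stood at 3582 of the 7790 CPM in CTRL replicate 1 and at 4987 of the 10838 CPM in Znhit1_KO replicate 1.

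**Figure D2:**
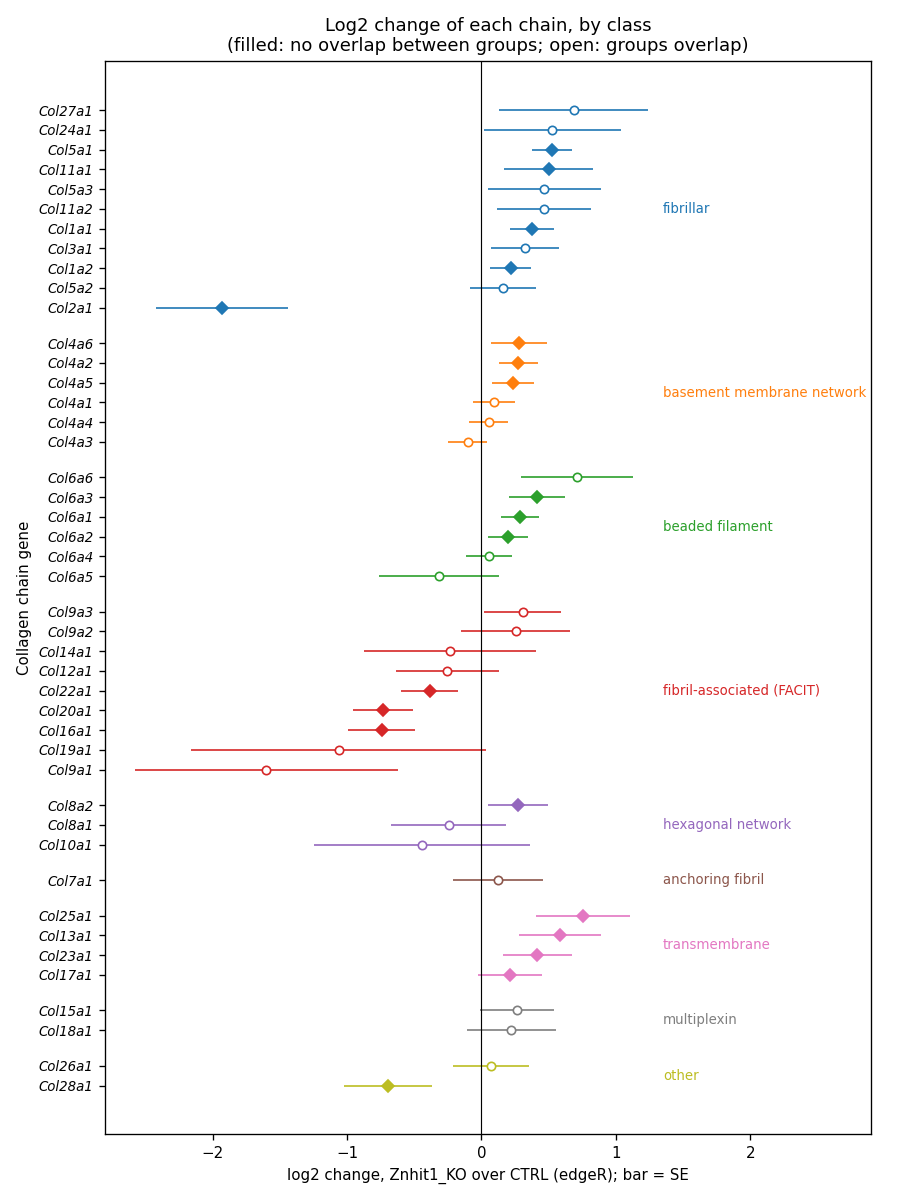
Log2 change of each collagen chain gene (Znhit1_KO over CTRL, horizontal axis; bars are standard errors), grouped by class, with filled diamonds where the 4 libraries separate by group and open circles where the groups overlap. Most chains lie between 0 and 0.76, and the lowest value without overlap is that of Col2a1 at -1.93; with Sertoli list scaling 18 of the positive changes are negative.

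Fibrillar collagens, the rope-like collagens of connective tissue, had a positive median log2 change of 0.47 over 11 chains, 10 of them positive. The median was 0.22 without CTRL replicate 2, 0.29 without Znhit1_KO replicate 2 and 0.096 with Sertoli list scaling. Col5a1, a chain of the type V collagen that starts and limits the width of fibrils, stood at 64.0 and 56.5 CPM in CTRL replicates 1 and 2 and at 84.6 and 88.9 CPM in Znhit1_KO. Both Znhit1_KO libraries lay above both CTRL libraries, with means of 60.3 ± 5.33 and 86.7 ± 3.03 CPM (SD, n = 2). Its log2 change was 0.53 (SE 0.152; edgeR p of 0.0163 before adjustment, 0.344 after it). With Sertoli list scaling it was 0.19. The type I chains form the main fibrils of most connective tissue. Col1a1 stood at 176 and 142 CPM in CTRL and at 210.2 and 203 CPM in Znhit1_KO, a log2 change of 0.38 (SE 0.166). Col1a2 stood at 287 and 288 CPM in CTRL and at 307 and 362 CPM in Znhit1_KO (0.22, SE 0.154). Neither overlapped between groups, and neither passed the edgeR test (adjusted p of 0.503 and 0.658). With Sertoli list scaling the change of Col1a2 was -0.11. Col3a1, whose type III fibrils accompany type I in soft tissue, was high in a single library. It stood at 167 and 177 CPM in CTRL and at 163 and 267 CPM in Znhit1_KO replicates 1 and 2, and without that last library its log2 change was -0.11. The same library was highest for the stromal fibroblast markers. These summed to 138 and 187 CPM in CTRL and to 172 and 314 CPM in Znhit1_KO. That library was also highest for the Leydig, endothelial, macrophage, capsule mesothelium and epididymis markers. The part of these cells in the Col3a1 value was not tested. Col11a1, a minor fibril chain, was higher in both Znhit1_KO libraries at a low level, with 2.39 and 2.27 CPM in CTRL and 2.65 and 3.94 CPM in Znhit1_KO. Col5a2, Col5a3, Col11a2, Col24a1 and Col27a1 overlapped between groups, with log2 changes from 0.16 to 0.69.

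Col2a1, the main collagen of cartilage, was the fibrillar chain that went the other way. It stood at 8.45 and 21.1 CPM in CTRL replicates 1 and 2 and at 3.21 and 4.55 CPM in Znhit1_KO replicates 1 and 2. The groups did not overlap, and CTRL replicate 2 stood well above the other 3 libraries. The log2 change was -1.93 (SE 0.492), which is 3.81-fold lower in Znhit1_KO (edgeR p of 0.00974 before adjustment, 0.322 after it). The authors' deposited table gives -1.93 with an adjusted p of 0.00100. The size rests in part on CTRL replicate 2: without it the log2 change was -1.12, and without CTRL replicate 1 it was -2.45, where edgeR called the gene (adjusted p of 0.0107). Col2a1 (ENSMUSG00000022483.17) lies on the minus strand of chromosome 15, from 97975602 to 98004695 (mm10), and shares no annotated exon with another gene.

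Other cartilage genes did not all follow Col2a1. Comp, a cartilage matrix protein also made in tendon, stood at 3.58 and 10.3 CPM in CTRL and at 2.42 and 2.69 CPM in Znhit1_KO, with CTRL replicate 2 highest as for Col2a1 (log2 change -1.44, SE 0.530). Acan, the cartilage proteoglycan, was instead higher in both Znhit1_KO libraries, with 7.64 and 4.50 CPM in CTRL and 9.40 and 10.5 CPM in Znhit1_KO. Snorc, a cartilage gene, was at 0 in all 4 libraries, and the 7 markers of the list together summed to 12.9 and 16.3 CPM in CTRL and to 14.1 and 15.6 CPM in Znhit1_KO. Of the 5 that were tested, 3 had a positive change. Col9a1, which with Col9a2 and Col9a3 coats type II fibrils, was near the floor at 0.252 and 0.833 CPM in CTRL and 0.0633 and 0.295 CPM in Znhit1_KO, and overlapped between groups.

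**Figure D3:**
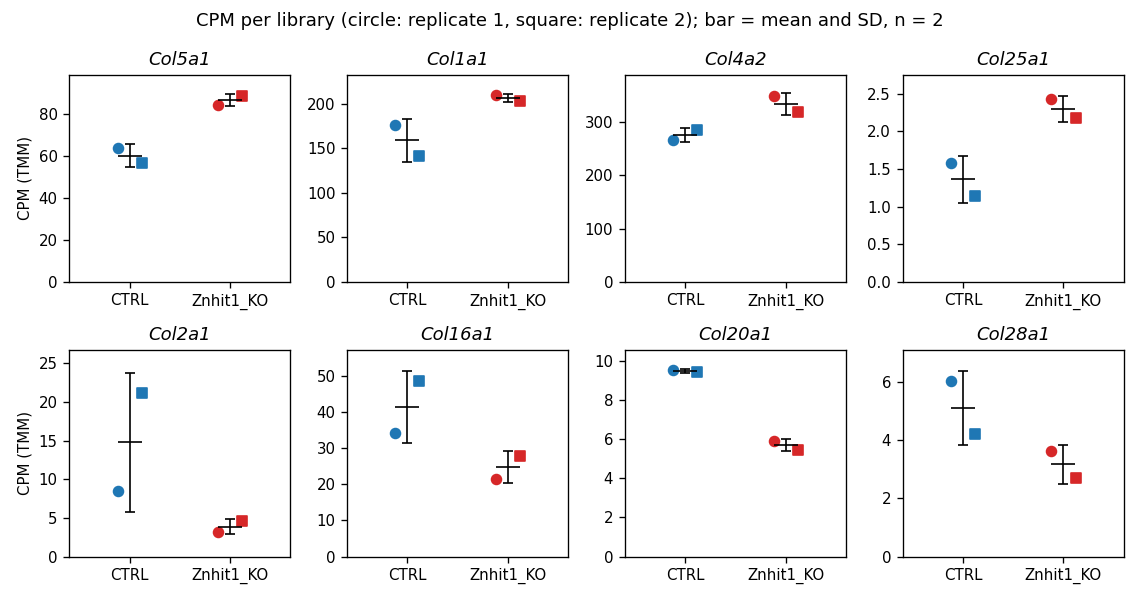
CPM per library (vertical axes from 0) of 4 chains higher and 4 chains lower in both Znhit1_KO libraries, with circles for replicate 1, squares for replicate 2 and black bars for the mean and SD (n = 2). Col20a1 shows a narrow spread within groups, 9.57 and 9.42 CPM against 5.94 and 5.47 CPM, whereas the CTRL libraries of Col2a1 stand at 8.45 and 21.1 CPM; the change of Col4a2 is -0.068 with Sertoli list scaling.

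The fibril-associated collagens, which sit on the surface of fibrils or at basement membrane junctions, were the class with a negative median among those of at least 4 chains. Among smaller classes, the 3 hexagonal network chains (-0.24) and the 2 other chains, Col26a1 and Col28a1 (-0.31), also had negative medians. For the fibril-associated class the median log2 change was -0.39 over 9 chains. It was -0.59 without Znhit1_KO replicate 1, -0.73 with Sertoli list scaling, and -0.25 and -0.23 with the filter of 1 CPM and with counts divided by 4. Of these chains, 7 had a negative change, and 3 lay below both CTRL libraries in both Znhit1_KO libraries, where 21.3% of all genes did. Col16a1, a minor collagen that binds cell surface integrins, stood at 34.3 and 48.5 CPM in CTRL and at 21.6 and 27.9 CPM in Znhit1_KO. Its means were 41.4 ± 10.1 and 24.7 ± 4.45 CPM (SD, n = 2), and its log2 change of -0.74 (SE 0.248) had an adjusted edgeR p of 0.404. Without CTRL replicate 2 the change was -0.47. Col20a1 stood at 9.57 and 9.42 CPM in CTRL and at 5.94 and 5.47 CPM in Znhit1_KO. Its replicates were close together and the groups did not overlap, and the log2 change of -0.73 (SE 0.223) had an adjusted edgeR p of 0.362. Its change kept between -0.71 and -0.82 whichever library was left out, and was -1.08 with Sertoli list scaling. Its exons share 79 bases (1.54%) with BX649560.1 on the same strand, where reads could be assigned to either. Col22a1, a collagen of tissue junctions, stood at 12.8 and 13.5 CPM in CTRL and at 10.9 and 9.23 CPM in Znhit1_KO. Col14a1 differed more between the Znhit1_KO libraries than between the groups, with 5.23 and 9.14 CPM in CTRL and 2.67 and 9.54 CPM in Znhit1_KO. Col12a1 and Col19a1 had negative changes and Col9a2 and Col9a3 positive ones, all with overlap between groups. The mean of the class on the log2 scale fell into the library order CTRL replicate 2, CTRL replicate 1, Znhit1_KO replicate 2, Znhit1_KO replicate 1. The mean of the pachytene markers had the same order. Singly, 2 of all the collagen chains had it, Col16a1 and Col2a1 (4.55%, against 10.4% of all genes tested). Of the fibril-associated chains Col16a1 alone did. The part of germ cell content in these values was not tested.

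Col16a1 (ENSMUSG00000040690.15, chromosome 4, 130047840 to 130099283, plus strand), Col20a1 (ENSMUSG00000016356.18, chromosome 2, 180986535 to 181018363, plus strand) and Col5a1 (ENSMUSG00000026837.16, chromosome 2, 27886425 to 28039514, plus strand) are shown by their promoter windows, since they were the chains with an unadjusted p under 0.05 for which a window was found. RefSeq windows (GRCm38.p6, the assembly of mm10), running from 250 bases before to 50 after a start, were found for 35 of the 44 chains. Capitals mark the letters searched for, which were TATAAA for the TATA box, CCAAT for the CCAAT box and GGGCGG for the GC box, on either strand, so that the reverse complements are in capitals too. The windows are chr2:27886175-27886474 for Col5a1, chr4:130047590-130047889 for Col16a1 and chr2:180986285-180986584 for Col20a1, all on the plus strand.
Col5a1: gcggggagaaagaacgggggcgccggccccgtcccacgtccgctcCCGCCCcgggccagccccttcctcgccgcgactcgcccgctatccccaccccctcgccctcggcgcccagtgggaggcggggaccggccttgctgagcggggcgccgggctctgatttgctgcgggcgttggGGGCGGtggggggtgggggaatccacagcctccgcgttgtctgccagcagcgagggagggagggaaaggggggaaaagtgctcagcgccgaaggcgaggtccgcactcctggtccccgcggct
Col16a1: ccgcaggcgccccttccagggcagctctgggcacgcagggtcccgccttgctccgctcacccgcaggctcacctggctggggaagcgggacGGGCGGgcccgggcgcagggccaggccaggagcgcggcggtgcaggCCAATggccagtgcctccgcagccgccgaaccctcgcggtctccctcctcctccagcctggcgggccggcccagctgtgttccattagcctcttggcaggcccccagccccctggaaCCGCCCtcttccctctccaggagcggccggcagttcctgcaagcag
Col20a1: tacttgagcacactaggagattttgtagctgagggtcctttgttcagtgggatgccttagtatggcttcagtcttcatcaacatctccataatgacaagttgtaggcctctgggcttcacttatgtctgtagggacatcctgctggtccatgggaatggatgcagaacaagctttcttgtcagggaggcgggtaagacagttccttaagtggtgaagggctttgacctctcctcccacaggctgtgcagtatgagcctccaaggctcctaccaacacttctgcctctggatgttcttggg

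GGGCGG, the GC box, stood in 23 of 38 collagen windows (60.5%), against 35.7% of all 32851 windows. The 38 windows belong to 35 chains and are not all separate sites. Those of Col6a2 overlap, as do those of Col4a1 and Col4a2, which share the GC box of the Col4a1 window. CCAAT stood in 34.2% of collagen windows and 37.4% of all, and TATAAA in 13.2% and 13.6%. The Col5a1 and Col16a1 windows each held 2 GC boxes, whereas the Col20a1 window held none of the 3 motifs. These are matches of letters in the sequence.

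Type IV collagen is the network of basement membranes. Its chains assemble in fixed sets: Col4a1 with Col4a2 in nearly all tissues, Col4a3 and Col4a4 with Col4a5, and Col4a5 with Col4a6. The median log2 change over the 6 chains was 0.16, or -0.18 with Sertoli list scaling, within a range of -0.10 to 0.28. Col4a1 stood at 363 and 394 CPM in CTRL and at 435 and 373 CPM in Znhit1_KO, with overlap between groups and a log2 change of 0.093 (SE 0.156). Col4a2 stood at 267 and 286 CPM in CTRL and at 349 and 319 CPM in Znhit1_KO, without overlap and with a change of 0.27 (SE 0.144). For Col4a2 the adjusted edgeR p was 0.564. Col4a3 was the chain of this class with a negative change, with 186 and 177 CPM in CTRL and 178 and 160.0 CPM in Znhit1_KO (-0.10, SE 0.144). Its partner Col4a4 stood at 317 and 335 CPM in CTRL and at 356 and 321 CPM in Znhit1_KO, also with overlap. The X-linked chains were each slightly higher in both Znhit1_KO libraries. Col4a5 stood at 35.9 and 38.0 CPM in CTRL and at 44.1 and 43.0 CPM in Znhit1_KO (0.24, SE 0.155). Col4a6 stood at 8.36 and 8.65 CPM in CTRL and at 10.03 and 10.6 CPM in Znhit1_KO (0.28, SE 0.211). With Sertoli list scaling all 6 chains had negative changes.

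The type IV genes lie in 3 head-to-head pairs, each transcribed outward from a shared region. In the mm10 annotation Col4a1 (chromosome 8, 11198423 to 11312826, minus strand) and Col4a2 (chromosome 8, 11312805 to 11449287, plus strand) overlap by 22 bases at their first exons. Col4a3 and Col4a4 on chromosome 1 are 71 bases apart, and Col4a5 and Col4a6 on the X chromosome 1308 bases apart. The windows of Col4a1 and Col4a2 are shown because the pair shares its start region; they have 78 bases in common, read from opposite strands, with capitals as above. The Col4a1 window is chr8:11312777-11313076 on the minus strand and the Col4a2 window chr8:11312555-11312854 on the plus strand. The Col4a1 window is chr8:11312777-11313076 on the minus strand and the Col4a2 window chr8:11312555-11312854 on the plus strand.
Col4a1: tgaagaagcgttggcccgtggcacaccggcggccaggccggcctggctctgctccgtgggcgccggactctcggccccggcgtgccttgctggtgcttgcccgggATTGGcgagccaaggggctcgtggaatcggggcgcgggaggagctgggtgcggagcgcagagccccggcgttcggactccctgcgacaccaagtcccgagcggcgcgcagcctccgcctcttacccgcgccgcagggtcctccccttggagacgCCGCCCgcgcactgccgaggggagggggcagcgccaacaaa
Col4a2: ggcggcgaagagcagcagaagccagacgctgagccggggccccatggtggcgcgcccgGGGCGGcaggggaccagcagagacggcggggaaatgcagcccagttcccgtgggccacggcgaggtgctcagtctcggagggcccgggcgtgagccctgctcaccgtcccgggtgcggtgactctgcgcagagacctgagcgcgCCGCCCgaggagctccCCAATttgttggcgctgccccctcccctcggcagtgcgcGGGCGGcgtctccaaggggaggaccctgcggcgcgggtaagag

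Ratios of partner chains differed in how far they varied across the libraries. The ratio of Col4a5 to Col4a6 in TPM lay between 4.36 and 4.57 in the 4 libraries. For Col4a1 to Col4a2 the CTRL libraries gave 1.33 and 1.34 and the Znhit1_KO libraries 1.21 and 1.14. Both Znhit1_KO libraries were lower for this pair, and the 2 genes start from overlapping ends. For Col4a3 to Col4a4 the CTRL libraries gave 0.692 and 0.626 and the Znhit1_KO libraries 0.593 and 0.588, again lower in both. The ratio of Col1a1 to Col1a2, whose products join as 2 chains to 1 in type I collagen, had CTRL values of 0.552 and 0.443 and Znhit1_KO values of 0.620 and 0.498. Col1a1 was thus the lower transcript in all 4 libraries on this per-length scale, and the groups overlapped. Col5a1 to Col5a2, which also join as 2 to 1, had a ratio of 3.72 and 3.41 in CTRL and of 5.47 and 4.05 in Znhit1_KO. Here both Znhit1_KO libraries were higher. They were also higher for Col6a3 to Col6a2, with 0.318 and 0.265 in CTRL and 0.341 and 0.335 in Znhit1_KO. Separation by group was thus not confined to the type IV pairs. Col6a1 to Col6a2 overlapped between groups. TPM depends on the transcript lengths the authors' software assigned. No test was made of these ratios.

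**Figure D4:**
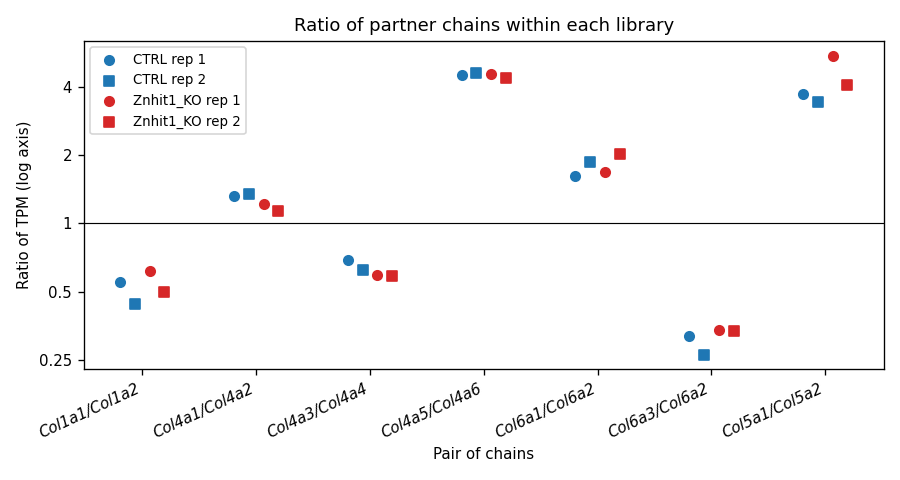
Ratio of TPM between partner chains within each library (log axis), with circles for replicate 1 and squares for replicate 2 of CTRL (blue) and Znhit1_KO (red). Col4a5/Col4a6 varies only between 4.36 and 4.57, and Col1a1/Col1a2 lies under 1 in every library, between 0.443 and 0.620.

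Type VI collagen forms beaded filaments between basement membranes and the stroma, from Col6a1, Col6a2 and one further chain. Col6a1 stood at 116 and 119 CPM in CTRL and at 135 and 151 CPM in Znhit1_KO. Col6a2 stood at 69.8 and 63.1 CPM in CTRL and at 79.0 and 73.4 CPM in Znhit1_KO. Col6a3, the usual further chain, stood at 49.6 and 36.1 CPM in CTRL and at 60.5 and 53.9 CPM in Znhit1_KO. Of the 6 chains of the class these 3 were higher in both Znhit1_KO libraries (50%, against 21.8% of all genes), and the rest overlapped between groups. The log2 changes of Col6a1, Col6a2 and Col6a3 were 0.29 (SE 0.143), 0.20 (SE 0.150) and 0.42 (SE 0.208). With Sertoli list scaling those of Col6a1 and Col6a2 were -0.047 and -0.15. The lowest adjusted edgeR p of the class was 0.546, for Col6a1. Of the chains that can replace Col6a3, Col6a4 was abundant, at 32.5 and 36.7 CPM in CTRL and 37.8 and 34.2 CPM in Znhit1_KO, and overlapped between groups. Col6a5 stood at 1.05 CPM or under in every library, and Col6a6 stood at 5.41 and 3.04 CPM in CTRL and at 8.71 and 5.13 CPM in Znhit1_KO. The genes of these 3 chains all lie on chromosome 9, between 105687809 and 106096783 (mm10).

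Membrane-spanning collagens, whose outer part is shed from the cell, were higher in both Znhit1_KO libraries for all 4 chains, where 21.8% of all genes were; with Sertoli list scaling Col25a1 alone of the 4 was. Col25a1, which acts in the innervation of muscle, stood at 1.58 and 1.14 CPM in CTRL and at 2.42 and 2.18 CPM in Znhit1_KO. Its log2 change of 0.76 (SE 0.347) was the highest of the 44 chains, with an adjusted edgeR p of 0.517. Col13a1, a collagen of cell adhesion sites, stood at 3.42 and 2.80 CPM in CTRL and at 3.96 and 5.37 CPM in Znhit1_KO (0.58, SE 0.305). Col23a1 stood at 3.53 and 3.26 CPM in CTRL and at 4.52 and 4.53 CPM in Znhit1_KO (0.42, SE 0.259). Col17a1, the hemidesmosome collagen, stood at 5.09 and 5.51 CPM in CTRL and at 5.98 and 6.29 CPM in Znhit1_KO (0.21, SE 0.237), and its change was -0.12 with Sertoli list scaling. These 4 are transcripts of under 5 TPM in every library.

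The remaining chains showed no shared direction. Col15a1, the basement membrane relative of Col18a1, stood at 37.7 and 25.3 CPM in CTRL and at 44.2 and 31.4 CPM in Znhit1_KO, with replicate 1 higher in each group as for Col18a1. Col28a1, a minor collagen with von Willebrand factor A domains, was lower in both Znhit1_KO libraries, with 6.03 and 4.22 CPM in CTRL and 3.65 and 2.69 CPM in Znhit1_KO (-0.69, SE 0.328; adjusted edgeR p of 0.527). Col8a2, a chain of hexagonal networks, stood at 6.61 and 6.58 CPM in CTRL and at 8.14 and 7.81 CPM in Znhit1_KO (0.27, SE 0.222). Its partner Col8a1, the anchoring fibril collagen Col7a1, the hypertrophic cartilage collagen Col10a1 and Col26a1 overlapped between groups.

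Genes that make, process and bind collagen had positive medians of 0.17 to 0.37 over 6 lists, and with Sertoli list scaling the medians of all but the breakdown list were negative. Without Znhit1_KO replicate 1 the medians were 0.12 for modification and folding, -0.00049 for processing and crosslinking, 0.24 for breakdown, 0.090 for receptors and 0.090 for basement membrane partners. The receptor median also stood at 0.047, 0.11 and 0.015 without CTRL replicate 1, CTRL replicate 2 and Znhit1_KO replicate 2, that of basement membrane partners at 0.16 without CTRL replicate 2, and that of proteoglycans and fibre partners at 0.090 without Znhit1_KO replicate 2. No member of these lists was called by edgeR, which called 0% of all genes. Of 19 genes for chain modification and folding, 16 had a positive change, and the median was 0.28. Fkbp10, a chaperone of procollagen in the endoplasmic reticulum, stood at 42.1 and 34.2 CPM in CTRL and at 56.0 and 52.0 CPM in Znhit1_KO (0.50, SE 0.178). Mia3, which loads procollagen into transport carriers, went the other way, with 104 and 149 CPM in CTRL and 81.1 and 90.5 CPM in Znhit1_KO (-0.56, SE 0.215). P4hb, the most abundant of them and a subunit of prolyl hydroxylase, overlapped between groups at 379 and 427 CPM in CTRL and 401 and 462 CPM in Znhit1_KO.

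Among 14 genes of propeptide processing and crosslinking the median was 0.22, with 10 positive. Bmp1, the protease that removes the C-terminal propeptide, stood at 22.7 and 22.4 CPM in CTRL and at 31.8 and 43.1 CPM in Znhit1_KO (0.73, SE 0.210). Loxl2, a crosslinking oxidase, stood at 9.83 and 8.81 CPM in CTRL and at 13.1 and 19.7 CPM in Znhit1_KO (0.81, SE 0.271). Adamts3, which removes N-terminal propeptides, was low, at 1.98 and 1.29 CPM in CTRL and 2.97 and 3.21 CPM in Znhit1_KO. The 3, named as those of lowest p in their list, were separated by group and had adjusted edgeR p-values of 0.340, 0.402 and 0.458. Of the 14 genes, 5 were higher in both Znhit1_KO libraries (35.7%, against 21.8% of all genes) and 0 were lower in both (against 21.3%). Of the 12 tested genes of breakdown and its inhibitors, 9 were positive, with a median of 0.37; Timp2, an inhibitor of metalloproteinases, stood at 395 and 443 CPM in CTRL and at 588 and 515 CPM in Znhit1_KO. The membrane metalloproteinase Mmp14 stood at 128 and 95.5 CPM in CTRL and at 185 and 142 CPM in Znhit1_KO.

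Of 8 tested collagen receptors 6 were positive, with a median of 0.21. Itga11, the integrin chain that binds fibrillar collagen on fibroblasts, was the only member of these lists marked in the authors' deposited table, as up. That table marks 0.277% of its genes up and 3.22% down. Itga11 stood at 2.36 and 2.17 CPM in CTRL and at 4.89 and 7.23 CPM in Znhit1_KO. Its log2 change was 1.42 (SE 0.314), with an adjusted edgeR p of 0.285. Ddr1, a receptor kinase for collagen, stood at 197 and 167 CPM in CTRL and at 307 and 216 CPM in Znhit1_KO. Of 15 basement membrane partners 13 were positive, with a median of 0.26. The laminin chain Lamc1 stood at 141 and 139 CPM in CTRL and at 188 and 187 CPM in Znhit1_KO (0.42, SE 0.135). The 13 proteoglycans and fibre partners had a median of 0.17, with 10 positive. Sparc, a collagen-binding matrix protein, stood at 1254 and 1297 CPM in CTRL and at 1574 and 1545 CPM in Znhit1_KO, while Fn1 was lower in both Znhit1_KO libraries (-0.24, SE 0.148).

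Markers of the cells that make collagen did not move as 1 group. The 9 peritubular myoid markers summed to 883 and 913 CPM in CTRL and to 1000 and 801 CPM in Znhit1_KO, with a median log2 change of -0.0026 and 4 positive; Acta2, smooth muscle actin, stood at 364 and 461 CPM in CTRL and at 418 and 374 CPM in Znhit1_KO. The 7 stromal fibroblast markers were all positive, with a median of 0.72. Pdgfra, a stromal receptor, stood at 74.2 and 89.2 CPM in CTRL and at 98.3 and 158.1 CPM in Znhit1_KO. Without Znhit1_KO replicate 2 the stromal median was -0.011. Leydig cell markers (6 genes, 5 positive) summed to 38.7 and 62.4 CPM in CTRL and to 59.1 and 96.9 CPM in Znhit1_KO, and endothelial markers (7 genes, 6 positive) to 77.7 and 94.6 CPM and to 99.97 and 114 CPM. Macrophage markers (7 genes, all positive) summed to 50.6 and 60.1 CPM in CTRL and to 57.5 and 82.5 CPM in Znhit1_KO. Markers of the testis capsule mesothelium summed to at most 8.62 CPM, of skeletal muscle to at most 2.25 CPM and of epididymis to at most 0.497 CPM in any library. The part of these cell types in the collagen values was not tested.

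**Figure D5:**
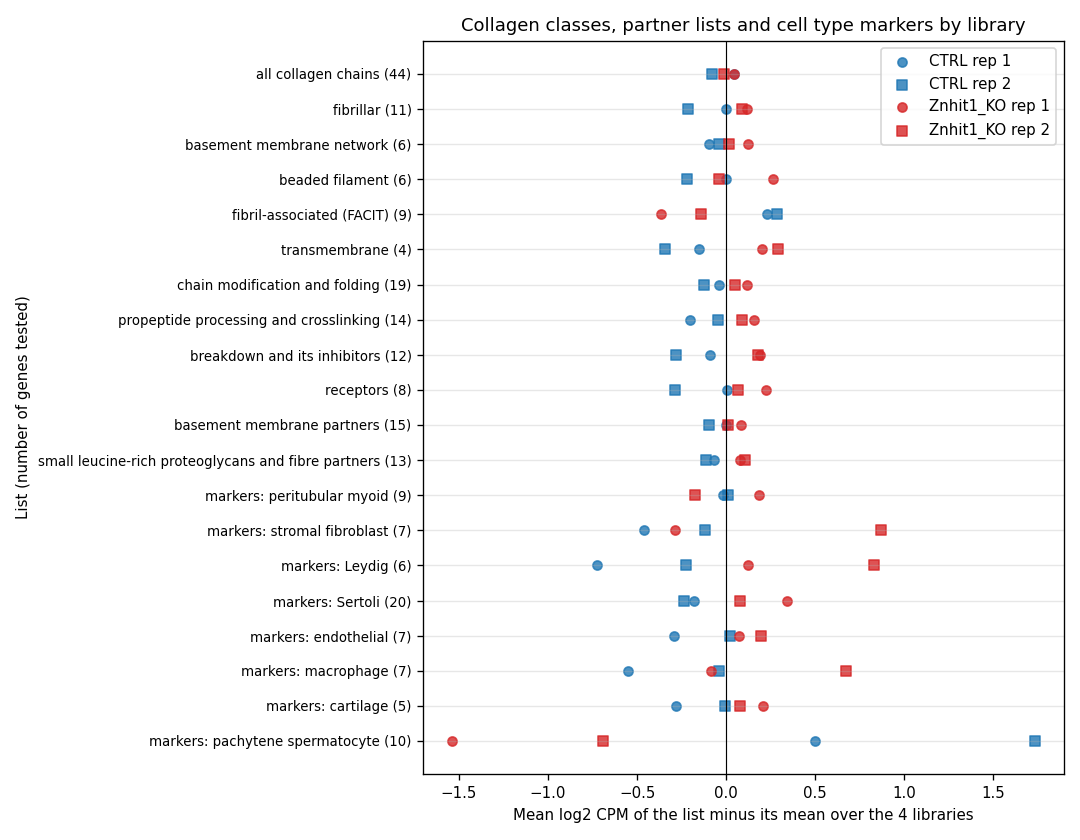
Mean log2 CPM of each gene list minus its mean over the 4 libraries (horizontal axis), with circles for replicate 1 and squares for replicate 2 of CTRL (blue) and Znhit1_KO (red). The fibril-associated collagens reach -0.37 in Znhit1_KO replicate 1, whereas the pachytene markers range from -1.54 to 1.73. Znhit1_KO replicate 2 is highest for stromal, Leydig, endothelial and macrophage markers, for the transmembrane collagens and for the proteoglycans and fibre partners.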

How the data were processed

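Testis RNA was compared between 2 Znhit1_KO and 2 CTRL libraries, grouped by title. Per the submitters' processing notes, cutadapt 2.5, HISAT2 2.2.1, StringTie 2.2.1, DESeq2 1.38.3 and mm10 were used; the sources used here do not state order, settings, strand or annotation. The deposited counts are whole-number estimated counts made by the authors, with sums above the reads stated, so that they are not numbers of reads and overstate counting precision. TPM values, mean normalised signal, log2 fold changes, Wald scores and p-values are those of the authors' deposited table.

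Counts were tested with edgeR 4.0.16 (quasi-likelihood, R 4.3.3): TMM, filterByExpr with a minimum of 10 counts, genotype only, Benjamini-Hochberg adjustment over 24116 genes at 0.05. The fitting script was checked on simulated data. Standard errors came from the F statistic. Alternatives were total count, DESeq2 size factor and Sertoli list scaling, no filter, a filter of 1 CPM in 2 libraries, counts divided by 4, DESeq2 1.42.0, limma 3.58.1, a replicate block and leaving out each library. Chain positions came from GENCODE M21; 42 of 44 identifiers had the same version and the other 2 were matched without it.

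Members and lists were chosen with earlier results of these data known. Every chain could be named; of each partner list the 3 members of lowest p and the 2 most abundant, and of each marker list the 2 most abundant and any at 0.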

Additional observations from a re-analysis of the deposited data

How the results depend on the processing

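Scaling each library to the Sertoli markers made the collagen median -0.12 and left 1 chain higher and 15 lower without overlap, beside 5.55% and 44.04% of all genes. It turned the sign of the medians of basement membrane (-0.18), beaded filament (-0.10), collagen chains of at least 10 TPM (-0.11), collagen chains under 10 TPM (-0.14), chain modification and folding (-0.071), propeptide processing and crosslinking (-0.12), receptors (-0.13), basement membrane partners (-0.081), small leucine-rich proteoglycans and fibre partners (-0.16) and endothelial (-0.029). It turned that of the chains Col5a2 (-0.16), Col4a4 (-0.29), Col6a2 (-0.15), Col6a1 (-0.047), Col18a1 (-0.15), Col17a1 (-0.12), Col9a3 (-0.047), Col15a1 (-0.10), Col9a2 (-0.065), Col8a2 (-0.068), Col26a1 (-0.26), Col1a2 (-0.11), Col4a1 (-0.25), Col4a2 (-0.068), Col6a4 (-0.29), Col7a1 (-0.24), Col4a6 (-0.055) and Col4a5 (-0.10). Total count scaling gave the myoid markers a median of 0.0083. The cause was not tested. DESeq2 called 1041 genes and 1 chain (Col2a1). Leaving out each library in turn, where the lone sample left is assumed to vary like the others, gave 0 to 754 genes and 0 to 1 chains past the threshold (754 and Col2a1 without CTRL replicate 1), 19 to 25 chains higher and 9 to 14 lower without overlap, beside 30.5% to 39.9% and 32.2% to 37.4% of all genes, and a collagen median of 0.092 to 0.24. Signs turned in at least 1 such fit for propeptide processing and crosslinking (-0.00049 to 0.30), peritubular myoid (-0.17 to 0.17), stromal fibroblast (-0.011 to 1.23), Col19a1 (-2.46 to 0.091), Col5a2 (-0.15 to 0.36), Col3a1 (-0.11 to 0.61), Col4a4 (-0.050 to 0.095), Col18a1 (-0.33 to 0.56), Col14a1 (-1.46 to 0.39), Col8a1 (-0.61 to 0.065), Col24a1 (-0.33 to 1.01), Col15a1 (-0.038 to 0.58), Col9a2 (-0.18 to 0.53), Col26a1 (-0.11 to 0.28), Col4a1 (-0.052 to 0.16), Col6a5 (-0.81 to 0.00087), Col6a4 (-0.043 to 0.15) and Col7a1 (-0.16 to 0.47). Col9a1, Col10a1 and Col19a1 had no value with the filter of 1 CPM or with counts divided by 4. Under every alternative that gave them a value 20 of 44 chains kept their sign, 11 of 31 positive and 9 of 13 negative. Col5a1, Col2a1, Col16a1 and Col20a1 were among them. Sertoli list scaling lowered the changes of all genes together (median -0.31, against 0.031 with TMM), and the 18 chains it turned were all positive. The shares kept therefore do not show that negative changes are firmer than positive ones. With 2 samples a group the spread between replicates limits what can be called, and the estimated counts give no counting interval.

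The labels give replicate numbers in both groups but no shared litter or day. Same-numbered libraries deviated together from their group means (r = 0.42 across all genes and 0.65 across the chains, which are not independent replicates). With the replicate block 2737 genes passed the threshold (11.3%), 814 higher and 1923 lower, and 5 chains (11.4%), a share close to that of all genes: Col5a1 and Col6a6 higher, Col2a1, Col16a1 and Col20a1 lower.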

Other observations

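The 16 chains of at least 10 TPM had a median log2 change of 0.23, with 14 positive, and 8 were higher and 1 lower in both Znhit1_KO libraries. The 28 chains under 10 TPM had a median of 0.19, with 17 positive; 7 were higher and 4 lower in both Znhit1_KO libraries. Of all genes tested 21.8% were higher and 21.3% lower in this way, and no test of a difference between the level groups was made. With Sertoli list scaling the medians were -0.11 and -0.14. In summed CPM the abundant chains stood at 2692 and 2580 in CTRL and at 3149 and 2856 in Znhit1_KO, and the others at 130.5 and 133 in CTRL and at 132 and 129.8 in Znhit1_KO.

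Among the chains, 18 of 44 (40.9%) were higher in replicate 1 than in replicate 2 of both groups, against 34.8% of all genes tested, and 10 (22.7%) were higher in replicate 2 of both, against 36.9%. The most frequent order of the libraries, Znhit1_KO replicate 1, CTRL replicate 1, Znhit1_KO replicate 2 and CTRL replicate 2, held for 6 chains (13.6%, against 10.9% of all genes): Col6a6, Col7a1, Col9a3, Col11a2, Col15a1 and Col27a1. Of these Col9a3 shares 234 exonic bases (6.07% of its exons) with Tcfl5 on the opposite strand, a gene with estimated counts of 13007 to 25708 per library against 662 to 1350 for Col9a3, so that without strand its reads could not be told apart there. No other chain shared more than 5.65% of its exonic bases with another gene.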
